A study of Mus musculus with 4 samples.

Results

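The 6 genes described here, Stat2, Stat3, Stat4, Stat5a, Stat5b and Stat6, belong to the STAT family of transcription factors. They were chosen by name, as the rows of the deposited table with these gene symbols, and all 6 were found among the 48897 genes listed. The data are RNA-Seq libraries of whole retinas from wild type C57BL/6 mice. At postnatal day 3, the left eye was injected intravitreally with 0.6 nmol of miR-124-3p antagomir in 1 μl, and the right eye with the same amount of a scrambled sequence. An antagomir is an antisense oligonucleotide with chemical modifications, which binds the mature form of a microRNA. Retinas were taken at postnatal day 9, 6 days later, and gave 2 libraries of the left eyes (anti-miR-124 group) and 2 of the right eyes (NC group). Both eyes were injected, so that the NC group is not an untouched retina, and the left eye cannot be told apart from the antagomir. Retinas of several mice and of more than 1 litter were mixed for a group. The source of each library is not given, and the p-values measure only the spread between these libraries, which may be technical. A left-eye and a right-eye library share a number in the deposited table and make up a pair, named A or B, as no label says which of them is replicate 1. The libraries are written NC-A and anti-A for pair A, and NC-B and anti-B for pair B.

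STAT proteins wait in the cytoplasm in an inactive form. When a cytokine binds its receptor, Janus kinases attached to the receptor phosphorylate the STAT protein, which then pairs with another one, enters the nucleus and binds DNA. Each member answers to its own cytokines. Stat2 serves the type I interferons as part of the complex ISGF3, in which Irf9 provides most of the DNA contact. Stat3 serves interleukin-6 and its relatives, which signal through the shared receptor chain gp130, and in the retina it is known for its part in the response of Müller glia and astrocytes to injury. Stat4 serves interleukin-12, mainly in lymphocytes, Stat6 serves interleukin-4 and interleukin-13, and Stat5a and Stat5b serve growth hormone, prolactin, erythropoietin and several interleukins. ISGF3 binds the interferon-stimulated response element (ISRE), and the other STAT pairs bind the gamma-activated sequence (GAS).

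The libraries held 16317239 and 17992340 counts in NC-A and NC-B and 17150849 and 18726963 in anti-A and anti-B. A TPM value is the count of a gene per length, scaled to the same total in every library. Rod photoreceptor markers were present throughout, with summed TPM values of 9124 to 10640 over 10 genes, and Müller glia markers with 1789 to 1906 over 8 genes. Of 12 markers of T and NK lymphocytes, 6, among them Cd3d, Cd3e and Gzma, had no count in any library, while Cd8a had 63 and 68 counts in NC-A and anti-A and 65 and 98 in NC-B and anti-B. NC-A stood apart, as 14 lens genes summed to 48690 TPM there and to between 96.7 and 139.7 in the other 3 libraries. In this pair the median log2 TPM ratio of the 17766 genes tested was 0.0981, and it was -0.00941 with TMM-normalized counts. Log2 TPM ratios of pair A therefore lie about 0.1 above those on the TMM scale, and ratios in pair B do not, with medians of -0.000261 and 0.00314. In these bulk samples, fewer cells of a type and less RNA per cell cannot be told apart.

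By the positions of the deposited table, whose genes lie where the GRCm38 annotation has them, 3 members are neighbours on chromosome 11. Stat5b lies on the minus strand at chr11:100780731-100859004, Stat5a on the plus strand at chr11:100859351-100885169 and Stat3 on the minus strand at chr11:100886806-100939579. Between these outer bounds, Stat5b and Stat5a are 346 bases apart and point away from each other, and 1636 bases separate the ends of Stat5a and Stat3. Windows around the RefSeq start sites lie further apart, the nearest at chr11:100850532-100850831 for Stat5b and chr11:100859406-100859705 for Stat5a. On chromosome 10, Stat6 (chr10:127642039-127660987) and Stat2 (chr10:128270559-128292852) are both on the plus strand with 609571 bases between them. Stat4 is alone, on the plus strand of chromosome 1 (chr1:51987106-52107189).

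The promoters of Stat2 and Stat3 are shown because these 2 genes had the highest levels and differed in which libraries were high. Each runs from 250 bases before to 50 bases after the RefSeq start site (GRCm38.p6), with matches to the ISRE and GAS letters in capitals. The letters searched, on both strands, were GAAANNGAAA for the ISRE, and TTCNNNGAA and TTCNNNNGAA for the GAS with a spacer of 3 or 4 bases.
Stat2 (chr10:128270248-128270547, plus strand): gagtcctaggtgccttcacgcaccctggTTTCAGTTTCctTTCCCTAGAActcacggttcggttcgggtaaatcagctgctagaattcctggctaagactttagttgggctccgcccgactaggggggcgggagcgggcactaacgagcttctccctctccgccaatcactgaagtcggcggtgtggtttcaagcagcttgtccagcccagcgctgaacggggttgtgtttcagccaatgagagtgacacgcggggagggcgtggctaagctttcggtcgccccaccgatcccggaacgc
Stat3 (chr11:100939491-100939790, minus strand): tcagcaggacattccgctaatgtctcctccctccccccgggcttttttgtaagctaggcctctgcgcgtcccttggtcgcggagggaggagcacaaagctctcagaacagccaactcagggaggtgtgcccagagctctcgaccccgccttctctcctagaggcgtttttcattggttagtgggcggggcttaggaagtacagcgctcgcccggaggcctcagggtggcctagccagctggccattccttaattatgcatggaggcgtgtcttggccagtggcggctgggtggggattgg
The Stat2 promoter held 1 ISRE match, read on the strand opposite to the gene at chr10:128270276-128270285, and beside it 1 match to the GAS with a spacer of 4 at chr10:128270288-128270297. The Stat3 promoter held none of the 3 motifs. Of the 32851 promoters of this kind in the RefSeq table, 3.44% held the ISRE letters, 8.3% the GAS with a spacer of 3 and 6.95% the GAS with a spacer of 4. The table has 9 promoters for the 6 genes, and the remaining 7 held 1 match, an ISRE in the second start site of Stat4 at chr1:52008143-52008152. A match is a run of letters and was not tested as a binding site.

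Stat5a and Stat5b are close copies, and reads that lie wholly in stretches they share cannot be assigned by sequence alone. How the counting treated such reads is not given, and the effect on the counts was not tested. In the longest coding sequences of GENCODE M21, 90.7% of 2294 aligned bases were identical, against 58.3% to 65.3% for the other pairs of members. A stretch of 324 coding bases, crossing exons 6, 7 and 8 of both genes, did not differ at all. Of all windows of 50 coding bases, 25.9% of those of Stat5a and 26.3% of those of Stat5b were also found in the other gene, and no such window was shared by any other pair of members. The stretch of 60 coding bases that differed most, coding bases 85 to 144 of each gene, shows in capitals the 19 bases by which reads of the 2 genes can be separated there. It crosses an intron in both genes.
Stat5a (chr11:100861422-100861736, plus strand): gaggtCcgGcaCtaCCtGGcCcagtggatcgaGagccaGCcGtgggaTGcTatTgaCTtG
Stat5b (chr11:100805011-100808439, minus strand): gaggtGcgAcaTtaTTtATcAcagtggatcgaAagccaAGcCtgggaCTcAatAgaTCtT

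The levels of the 6 genes spanned a wide range. Stat3 was the most abundant in every library, with 46.1 and 44.9 TPM in NC-A and NC-B and 44.6 and 74.2 TPM in anti-A and anti-B. It took between 51.9% and 60.5% of the summed TPM of the 6 genes. Stat2 came next with 17.8 and 22.0 TPM in the NC group and 23.4 and 28.4 TPM in the anti-miR-124 group. Stat5b followed with 11.1 to 12.5 TPM. Their ranges over the 4 libraries did not overlap with each other or with those of the genes below them, with mean levels 2.29 times (Stat3 over Stat2), 1.93 times (Stat2 over Stat5b) and 3.38 times (Stat5b over Stat6) those of the next gene.

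Stat6 and Stat5a could not be ordered. Stat6 lay between 2.77 and 5.07 TPM and Stat5a between 2.42 and 2.96 TPM, and Stat6 was the higher in 3 of 4 libraries. Stat4 was at the edge of detection, with counts of 2 and 1 in NC-A and NC-B and 2 and 4 in anti-A and anti-B. Its highest level was 0.219 TPM, and 3 counts on this gene would be 0.165 to 0.179 TPM. Its log2 TPM ratios were 0.02 in pair A and 1.93 in pair B, with counting intervals that reach from -3.76 to 3.81 and from -1.40 to 7.56, and a difference was not detectable at this depth. It was left out of the test by the filter on low counts.

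**Figure D1:**
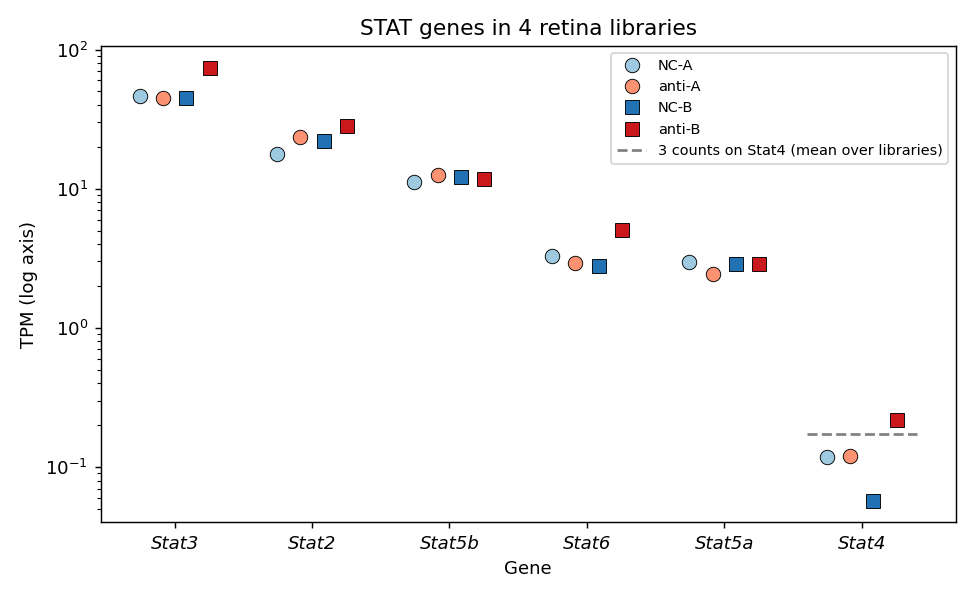
TPM of the 6 STAT genes (log axis) in each of the 4 libraries, ordered by mean level, with circles for pair A, squares for pair B, blue for the NC group and red for the anti-miR-124 group. Anti-B is the highest for Stat3 (74.2 TPM) and Stat6 (5.07 TPM), both anti-miR-124 libraries are above both NC libraries for Stat2, and 3 of the 4 Stat4 values lie under the dashed line of 3 counts.

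The comparison of the anti-miR-124 group with the NC group asks which mRNAs differ after the inhibition of miR-124-3p. Of the 5 members tested with edgeR's quasi-likelihood test, none had an adjusted p-value (Benjamini-Hochberg over all genes tested) under 0.05, the threshold for a gene to be called, and 0% of all genes tested were called. At an unadjusted p-value under 0.05, 1 member was higher in the anti-miR-124 group, where 2.23% of all genes tested were higher, and no member was lower. DESeq2's Wald test called 34 genes and limma-voom 0, none of them a member. On TMM-normalized counts relative to the library total (CPM), the groups did not overlap for Stat2, with the anti-miR-124 group higher as in 16.5% of all genes tested, and for Stat5a, with the NC group higher as in 16.8%. The 5 genes had a median log2 fold change of 0.33, against 0.000662 over all genes tested. Without anti-B their median was -0.07, and the median TMM-scale log2 ratio was -0.16 in pair A and 0.38 in pair B.

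Stat2, the interferon member, had nearly the same ratio in both pairs. Its counts were 425 and 550 in NC-A and anti-A and 537 and 727 in NC-B and anti-B. Both anti-miR-124 libraries were above both NC libraries, although anti-A was close to NC-B (23.4 against 22.0 TPM). The group means were 19.9 ± 2.95 TPM (SD, n = 2) in the NC group and 25.9 ± 3.54 TPM (SD, n = 2) in the anti-miR-124 group. The log2 TPM ratio was 0.40 in pair A (95% counting interval 0.21 to 0.58) and 0.37 in pair B (0.21 to 0.54). On the TMM scale the ratio in pair A was 0.29 and in pair B 0.37, and with the lens genes left out of the TPM sum it was 0.32 in pair A. The log2 fold change fitted to both groups was 0.33 (standard error, SE, 0.12, unadjusted p = 0.0249, adjusted p = 0.989 by edgeR). Without anti-B the log2 fold change was 0.20, and without NC-A it was 0.25, with unadjusted p-values of 0.103 and 0.137 by edgeR. The study had picked Stat2 and Stat3 from these same libraries, so their direction here is not independent evidence. The paper also reports RT-qPCR of its candidate genes on independently isolated RNA, whose trend it calls similar to that of the RNA-Seq. Those measurements are not part of the data used here.

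Stat3, the gp130 member, was high in 1 library. Its counts were 1163 and 1106 in NC-A and anti-A and 1158 and 2004 in NC-B and anti-B. NC-A, anti-A and NC-B lay within 44.6 to 46.1 TPM, and anti-B stood above them at 74.2 TPM, so the groups overlapped. The group means were 45.5 ± 0.894 TPM (SD, n = 2) for NC and 59.4 ± 20.9 TPM (SD, n = 2) for anti-miR-124. The log2 TPM ratio was -0.05 in pair A (95% counting interval -0.17 to 0.07) and 0.73 in pair B (0.62 to 0.83). On the TMM scale the ratio in pair A was -0.16, with a counting interval of -0.28 to -0.04. The fitted log2 fold change of 0.33 (SE 0.21, adjusted p = 0.989 by edgeR) was as large as that of Stat2, from a different distribution over the libraries. Without anti-B it was -0.07. Without anti-A, which leaves anti-B as the only anti-miR-124 library, it was 0.64. With no filter on low counts Stat3 had an adjusted p-value of 0.0193 by edgeR, a setting in which 379 of 31982 genes were called. Counting intervals cover counting error only, and not the spread between retinas.

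Stat6, the interleukin-4 member, was high in the same library. Its counts were 70 and 61 in NC-A and anti-A and 60 and 115 in NC-B and anti-B. As for Stat3, anti-B was above the other 3, which lay between 2.77 and 3.30 TPM. The NC mean was 3.03 ± 0.38 TPM and the anti-miR-124 mean 4.0 ± 1.51 TPM (SD, n = 2 each). The log2 TPM ratio was -0.18 in pair A (-0.69 to 0.34) and 0.87 in pair B (0.41 to 1.35), and the fitted log2 fold change was 0.34 (SE 0.33, adjusted p = 0.989 by edgeR). Without that library it was -0.09.

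The fitted differences of Stat5a and Stat5b were under 1 standard error. Stat5a had 72 and 58 counts in NC-A and anti-A and 72 and 75 in NC-B and anti-B. The groups did not overlap by a margin far under the counting error, with 2.89 TPM in NC-B and 2.88 TPM in anti-B. Its log2 TPM ratios were -0.29 (-0.81 to 0.23) and -0.01 (-0.49 to 0.48). Stat5b had 476 and 524 counts in NC-A and anti-A and 530 and 542 in NC-B and anti-B. Its log2 TPM ratios of 0.16 (-0.02 to 0.34) and -0.03 (-0.21 to 0.14) had opposite signs. Stat5a had means of 2.92 ± 0.0486 and 2.65 ± 0.321 TPM and Stat5b of 11.6 ± 0.69 and 12.2 ± 0.441 TPM in the NC and anti-miR-124 groups (SD, n = 2 each). The fitted log2 fold changes were -0.19 (SE 0.24) for Stat5a and 0.01 (SE 0.08) for Stat5b. Stat5b had the smallest standard error of the 5 genes, and its counting intervals hold no log2 difference above 0.34 in either pair.

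**Figure D2:**
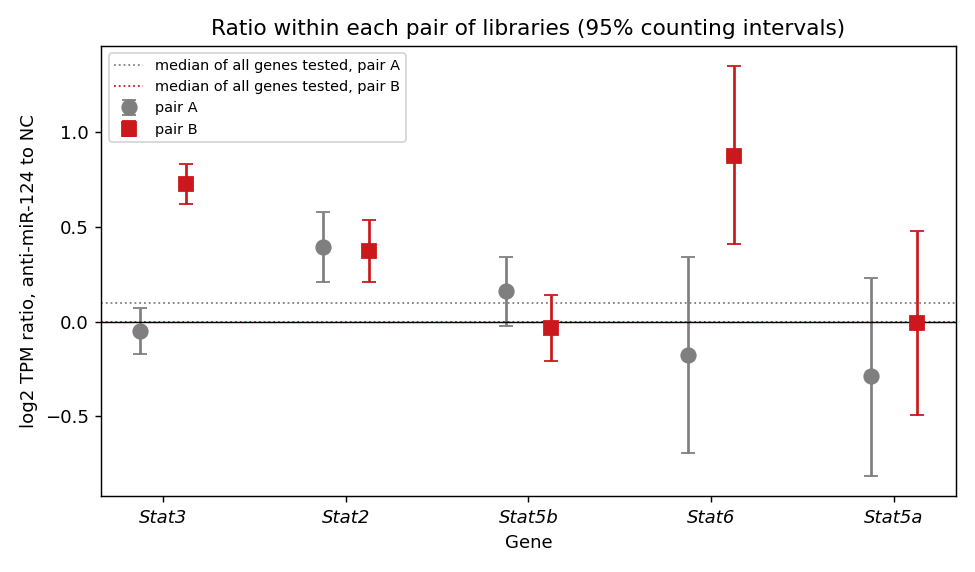
Log2 TPM ratio of the anti-miR-124 to the NC library within pair A (grey circles) and pair B (red squares) for the 5 members tested, with 95% counting intervals and, as dotted lines, the median of all genes tested in each pair. Stat2 has nearly the same ratio in both pairs (0.40 and 0.37), while Stat3 and Stat6 are above 0 in pair B (0.73 and 0.87) and not in pair A.

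Ratios between members within a library do not depend on the scaling of the library. Of the 15 pairs of members, none passed an exact permutation test over the 4 libraries (two-sided), whose smallest possible p-value with 2 libraries per group is 0.333, and the smallest value adjusted over the 15 pairs was 0.714. The proportion of Stat3 to Stat6 varied little, with log2 TPM ratios of Stat3 to Stat6 of 3.80 and 4.02 in NC-A and NC-B and 3.93 and 3.87 in anti-A and anti-B. Stat2 to Stat3 had log2 ratios of -1.38 and -1.03 in NC-A and NC-B and -0.93 and -1.39 in anti-A and anti-B. This ratio was 0.44 higher in anti-A than in NC-A and differed by -0.35 between anti-B and NC-B, so the sign was opposite. For Stat2 to Stat5b, the ratios of 0.68 and 0.86 in the NC group were both below the 0.91 and 1.26 of the anti-miR-124 group (exact permutation p = 0.333, adjusted p = 0.714). This was not particular to that pair. The groups also did not overlap for Stat2 to Stat5a, Stat3 to Stat5a and Stat5a to Stat6, with the same p-values. Nor did they for the ratios of Stat4, which had few counts, to Stat3, Stat5a and Stat6.

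Upstream of the STAT proteins, most cytokine genes were at or near 0. Of 22 ligand genes, 6 had no count in any library (Ifnb1, Il12b, Il10, Csf2, Lep and Prl) and 4 passed the filter on low counts. None of these 4 had an unadjusted p-value under 0.05. Cntf, a survival factor for retinal neurons that signals through gp130, had the highest level of the list, with 7.04 and 4.13 TPM in NC-A and anti-A and 4.12 and 7.88 TPM in NC-B and anti-B. Its direction was opposite in the 2 pairs. Clcf1, a related cytokine, had 1.44 and 2.11 TPM in the NC group and 1.28 and 1.43 TPM in the anti-miR-124 group (log2 fold change -0.43, SE 0.38).

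Of 24 receptor chains, 22 were tested and none was called. At an unadjusted p-value under 0.05, 2 were higher and 1 lower, where 2.23% and 1.68% of all genes tested were. Il6st encodes gp130 and had 41.0 and 43.4 TPM in the NC group and 48.0 and 54.3 TPM in the anti-miR-124 group, without overlap (log2 fold change 0.23, SE 0.08, unadjusted p = 0.0263 by edgeR). Lifr, which pairs with gp130, had the highest level of the list, 53.7 to 58.4 TPM, and a log2 fold change of 0.00437 (SE 0.07). Il12rb2, a chain of the interleukin-12 receptor that activates Stat4, was lower, with 9.33 and 11.2 TPM in the NC group and 8.46 and 7.60 TPM in the anti-miR-124 group (log2 fold change -0.40, SE 0.15, unadjusted p = 0.0319 by edgeR). The 22 genes had a median log2 TPM ratio of 0.07 in pair A and 0.34 in pair B. Of them, 16 had their highest TPM in anti-B, as 36.8% of all genes tested did.

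The 4 Janus kinases were all tested and none had an unadjusted p-value under 0.05. Jak1 lay between 84.5 and 98.1 TPM (log2 fold change 0.06, SE 0.07) and Jak2 between 25.5 and 28.7 TPM (0.001, SE 0.07). Tyk2, which works at the interferon receptor with Jak1, had 11.7 and 12.5 TPM in the NC group and 13.5 and 14.4 TPM in the anti-miR-124 group (0.16, SE 0.09).

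Among the 5 nuclear partners, Irf9 stood apart. The DNA-binding subunit of ISGF3 had 137 and 287 counts in NC-A and anti-A and 131 and 501 in NC-B and anti-B. Its log2 fold change was 1.47 (SE 0.23, unadjusted p = 0.000566, adjusted p = 0.672 by edgeR). The adjusted p-value of Irf9 was 4.24e-05 by DESeq2's Wald test and 0.984 by limma-voom. In TPM, Irf9 was at 0.54 and 0.409 times the level of Stat2 in NC-A and NC-B and at 0.874 and 1.15 times in anti-A and anti-B, a ratio formed after the values were seen. The co-activators Crebbp (log2 fold change 0.11, SE 0.07) and Ncoa1 (0.03, SE 0.08) differed less, and Ncoa1 had the highest level of the list at 90.8 to 107.7 TPM.

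Of 20 inhibitors, 19 were tested, none was called by edgeR, and 2 were higher at an unadjusted p-value under 0.05 (2.23% of all genes tested). Usp18, which binds the interferon receptor through Stat2 and limits its signal, had 3 and 111 counts in NC-A and anti-A and 13 and 253 in NC-B and anti-B (log2 fold change 4.41, SE 0.59, unadjusted p = 0.000196, adjusted p = 0.487 by edgeR). The adjusted p-value of Usp18 was 5.75e-11 by DESeq2's Wald test and 0.984 by limma-voom. Socs4 had 26.0 and 33.8 TPM in the NC group and 39.1 and 37.2 TPM in the anti-miR-124 group (0.30, SE 0.11, unadjusted p = 0.0339 by edgeR). Socs3, the feedback inhibitor induced by Stat3, differed in opposite directions in the pairs. It had 92 and 42 counts in NC-A and anti-A and 44 and 152 in NC-B and anti-B. Cish, the feedback inhibitor induced by Stat5, stayed between 6.92 and 8.61 TPM (log2 fold change -0.03, SE 0.17). Pias3, an inhibitor of Stat3 binding to DNA, was the most abundant of the list at 210.1 to 242.2 TPM (0.01, SE 0.08).

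The target lists of the members differed in the libraries that were high. The interferon target list, the genes that ISGF3 is known to switch on, had 19 genes, of which 18 were tested. None had an adjusted p-value under 0.05 by edgeR, and 16 were higher at an unadjusted p-value under 0.05 (2.23% of all genes tested). For 16 the groups did not overlap, with the anti-miR-124 group higher (16.5% of all genes tested). The summed TPM of the 19 genes was 34.1 and 44.1 in NC-A and NC-B and 123.9 and 224.8 in anti-A and anti-B. The median log2 fold change was 2.81, and the same with Oas1a, which had no count in the NC group, set to its bound of at least 16.8-fold higher (3 counts over the group). Without anti-B the median was 2.15. Ifit1, an inhibitor of the translation of viral RNA, had 3 and 78 counts in NC-A and anti-A and 3 and 174 in NC-B and anti-B. For Rsad2, an antiviral enzyme, these counts were 26, 127, 22 and 191 (log2 fold change 2.63, SE 0.29, adjusted p = 0.487 by edgeR). Oasl2 had the highest mean level of the list, with 2.82 and 2.23 TPM in the NC group and 20.0 and 44.3 TPM in the anti-miR-124 group. The adjusted p-values of Ifit1, Rsad2 and Oasl2 were 8.22e-09, 5.12e-07 and 6.12e-06 by DESeq2's Wald test, and 0.984 each by limma-voom. The study picked several genes of this list on these libraries, which is therefore not independent evidence of its direction.

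Compared with its target list, the difference of Stat2 itself was small. Summed over the list, the TPM in the anti-miR-124 library was 3.63 times that of the NC library in pair A and 5.1 times in pair B, and for Stat2 it was 1.32 and 1.29 times. The TPM of Stat2 was above that of all 18 tested genes in 3 libraries. In anti-B it was above 16 of them, and Oasl2 and Bst2 (35.2 TPM, a gene named after its values were seen) were higher.

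The Stat3 target list, genes known to follow gp130 and Stat3 in glia and other cells, was high in the same library as Stat3. Of 10 genes, 9 were tested and none was called, and 1 was higher at an unadjusted p-value under 0.05 (2.23% of all genes tested). The median log2 TPM ratio was -0.04 in pair A and 1.99 in pair B. Fitted over both groups, the median log2 fold change was 0.47, or -0.04 without anti-B. Of the 9, 8 had their highest TPM in anti-B, as did 36.8% of all genes tested. Serpina3n, a protease inhibitor and marker of reactive astrocytes, had 17 and 17 counts in NC-A and anti-A and 13 and 572 in NC-B and anti-B (log2 fold change 4.15, SE 1.41, unadjusted p = 0.0232 by edgeR). Without anti-B its log2 fold change was 0.18. Gfap, the intermediate filament of reactive glia, had 1496 and 720 counts in pair A and 631 and 3764 in pair B, so that NC-A was also above the other 2. Myc had 3.61 and 4.91 TPM in the NC group and 5.43 and 6.75 TPM in the anti-miR-124 group (0.47, SE 0.26). Ccnd1, a cell cycle gene and the most abundant of the list, was not highest in anti-B. It had 153.6 and 142.0 TPM in the NC group and 149.6 and 127.5 TPM in the anti-miR-124 group (-0.15, SE 0.12). Its log2 fold change ran from -0.28 to -0.02 with 1 library left out.

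**Figure D3:**
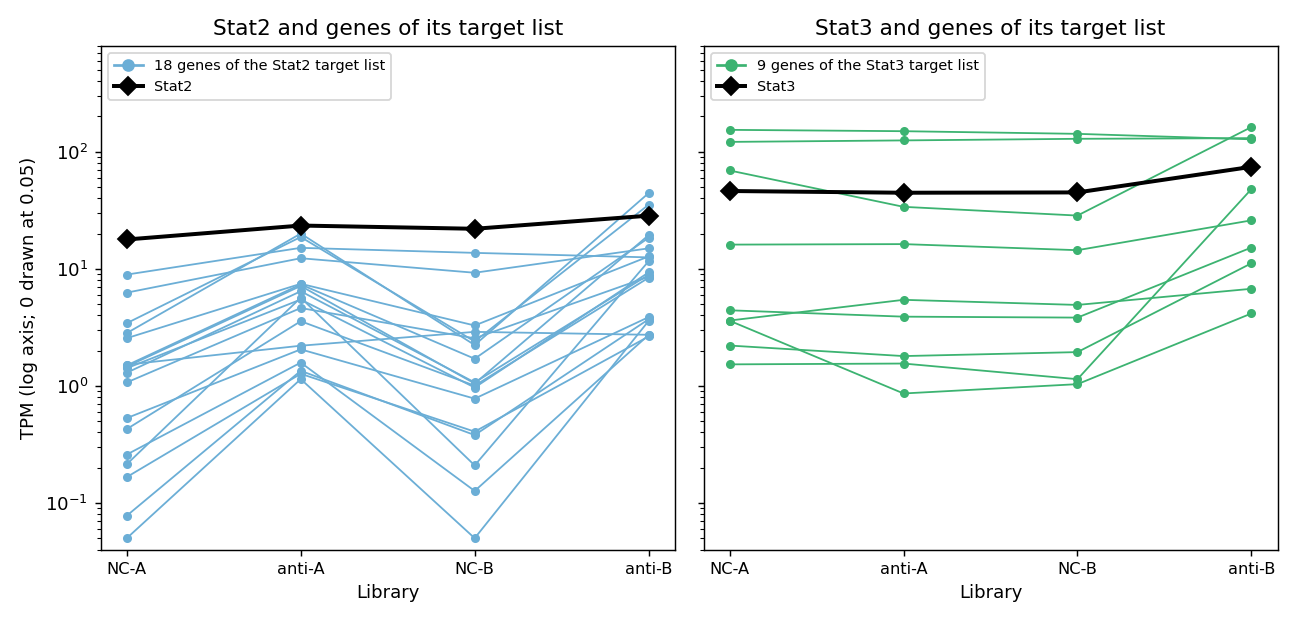
TPM (log axis) of Stat2 with the 18 tested genes of its target list (left) and of Stat3 with the 9 tested genes of its target list (right) in the 4 libraries, each line joining the values of 1 gene and a value of 0 drawn at 0.05. Most Stat2 targets are high in both anti-miR-124 libraries (summed TPM over the 19 listed genes of 123.9 and 224.8 against 34.1 and 44.1), and most Stat3 targets are highest in anti-B (8 of 9).

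Markers of microglia were high in the same library as Stat3 and Stat6. The 14 genes of this list, all tested, summed to 267.4 and 217.5 TPM in NC-A and NC-B and to 267.5 and 656.8 TPM in anti-A and anti-B. Of these, 13 had their highest TPM in anti-B, as did 36.8% of all genes tested. The 14 genes had a median log2 TPM ratio of 0.02 in pair A and 1.68 in pair B. None of the defining markers was at 0. The Müller glia list had a median log2 TPM ratio of -0.02 in pair B, with single genes from -0.19 to 0.74 (Aqp4). The part of the microglia in the levels of Stat3, Stat6 and the Stat3 targets of pair B was not tested. Within pair A, the log2 TPM ratios of single microglia genes ran from -1.06 to 0.23. Red blood cell and pigment epithelium genes were highest in anti-A, with summed TPM of 1592 and 110.9 against 404.2 to 745.1 and 41.2 to 76.4 in the other libraries, and their part in the ratios of pair A was not tested.

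The target lists of the remaining members gave few measurable genes. Of 5 Stat4 targets, 2 were tested, and Furin had 46.4 and 52.4 TPM in the NC group and 53.4 and 63.9 TPM in the anti-miR-124 group (log2 fold change 0.20, SE 0.09). Without anti-B that value was 0.08, and without anti-A 0.31. Of 7 Stat5 targets, 6 were tested, with a median log2 fold change of 0.06. Igf1, the growth factor that mediates growth hormone, had 15.3 and 18.5 TPM against 21.5 and 19.2 TPM (0.22, SE 0.10, or 0.12 without anti-A), and the survival gene Bcl2l1 had 43.5 and 50.8 against 51.3 and 52.8 TPM (0.10, SE 0.07). Of 9 Stat6 targets, 3 were tested and 2 (Retnla and Chil3) had no count in any library. Fcer2a lay between 9.23 and 10.4 TPM, and its log2 fold change was 0.04 (SE 0.11). Mrc1, the macrophage mannose receptor, had 56 and 20 counts in NC-A and anti-A and 12 and 142 in NC-B and anti-B, with a log2 fold change of 1.10 (SE 0.94), or -0.79 without anti-B. No gene of these 3 lists had an unadjusted p-value under 0.05.

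Over the 10 lists of 125 genes, 92 were tested and none was called by edgeR, while 22 were higher and 1 lower at an unadjusted p-value under 0.05, where 2.23% and 1.68% of all genes tested were. Of the 22 genes, 16 were on the interferon target list, which does not hold Irf9 and Usp18, counted here with the nuclear partners and inhibitors. DESeq2's Wald test called 12 genes of the lists, where it called 34 of 31982 genes in all, and limma-voom called 0. The lists were chosen with earlier results of these data known. Gapdh, a housekeeping gene, had a log2 fold change of -0.05 (SE 0.07).

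**Figure D4:**
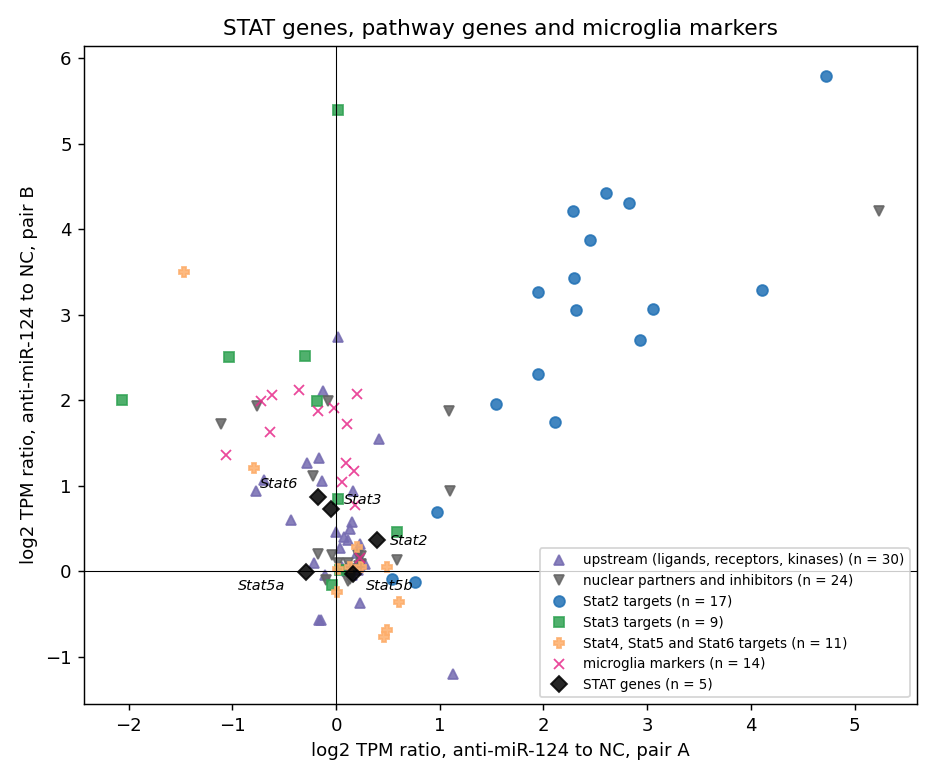
Log2 TPM ratio of the anti-miR-124 to the NC library in pair A (horizontal axis) and pair B (vertical axis) for the tested STAT genes, the tested genes of the pathway lists and the 14 microglia markers, with 1 symbol per gene and Oas1a, which has no count in the NC group, left out. Most interferon targets lie at the upper right, most Stat3 targets and microglia markers near 0 or below on the horizontal axis with ratios above 0 in pair B (medians of -0.04 and 0.02 in pair A and 1.99 and 1.68 in pair B), and the STAT genes within 0.4 of 0 in pair A.

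The genes with the pattern most like that of a member were found by the root mean square distance of their mean-centred log2 CPM over the 4 libraries, among 17765 genes. Nearest to Stat2 were Lrp1 (distance 0.00964), a large endocytic receptor, and the predicted genes ENSMUSG00000111312.1 (0.0151) and Gm21948 (0.0158). Lrp1 had 3382 and 4417 counts in NC-A and anti-A and 4333 and 5770 in NC-B and anti-B. Nearest to Stat3 were Prelp (0.00882), a matrix protein, Ctsc (0.015), a lysosomal protease of immune cells, and Aqp4 (0.0203), the water channel of Müller glia and astrocytes. Prelp had 706 and 679 counts in pair A and 715 and 1229 in pair B. For Aqp4 they were 110 and 106, and 107 and 187. With 4 libraries such distances are easily small, as 38 genes lay within 0.05 of Stat2 and 17 within 0.05 of Stat3.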

How the data were processed

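RNA-Seq was done on 2 libraries per group. The authors deposited whole-number read counts per gene without normalization, with gene lengths and positions, and RPKM values that were not used. Per the submitters' processing notes, HISAT2 and mm9 were used. The deposited positions nevertheless match GRCm38, as 99.8% of 36837 matched symbols overlap its RefSeq annotation. The counting tool and its use of strand are not given in the sources used here, so reads of overlapping genes could be shared.

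Columns were assigned to groups by the eye they name. TPM was computed from counts and lengths. Group differences were tested with edgeR 4.0.16 (R 4.3.3; quasi-likelihood test, TMM, filterByExpr, no covariate, two-sided, Benjamini-Hochberg over 17766 genes, threshold 0.05), checked on simulated data, with DESeq2 1.42.0 and limma 3.58.1 (voom) as alternatives. The smallest chi-square per degree of freedom between libraries was 3.44, so none was a duplicate. Intervals of a ratio within a pair are exact binomial ones (95%). Depth, 16317239 to 18726963 counts, sets them. Promoters came from RefSeq (GRCm38.p6), with all 6 genes matched, and transcripts from GENCODE M21, aligned with biopython 1.88. Other steps used Python 3.11.15, pandas 2.3.3 and scipy 1.17.1.

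The members and lists were chosen with earlier results of these data known. The text names the 6 members, Jak1, Jak2, Tyk2, Irf9, Il6st, Socs3, Cish and Gapdh, in each pathway list the 2 tested genes whose p-values were smallest, if the sign was the same in both pairs, and the gene of the highest mean TPM, and the 3 genes nearest to Stat2 and to Stat3. Gfap, Mrc1, Oas1a and Bst2 are named besides, after their values were seen, as are marker genes and genes without counts. Some genes are not reported here. Target sites of miR-124-3p and STAT proteins were not analysed here.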

Additional observations from a re-analysis of the deposited data

How the results depend on the processing

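The numbers of STAT genes, of all genes and of pathway list genes with an adjusted p-value under 0.05 were 0, 0 and 0, and the same with the other normalizations, limma-voom, a mean of at least 10 counts, and without the lens genes (an alternative chosen after seeing the data). With no filter they were 1 (Stat3), 379 and 26, and with DESeq2's Wald test 0, 34 and 12. Each library was left out in turn, with a lone library assumed to vary like the other group. The numbers then ran from 0 to 1, from 0 to 256 and from 0 to 24, and were highest without anti-A. Without NC-B there were 57 genes in all, and without anti-B 12, of which 4 were in the lists. The cause of these shifts was not tested.

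With the shared number as a replicate block the 3 numbers were 0, 0 and 0, and 376 genes passed 0.05 before adjustment, where 694 did in the fit with no block, and Stat2 had a log2 fold change of 0.332. The deviations of same-numbered libraries had a correlation of -0.161, and the labels do not say what the number marks. With the numbers crossed, a pairing added after seeing the data, the 3 numbers were 0, 160 and 19.

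The sign of some log2 fold changes depended on 1 library. Leaving out each in turn gave -0.0683 to 0.641 for Stat3, -0.0351 to 0.0642 for Stat5b, -0.0936 to 0.672 for Stat6, -0.0325 to 0.638 for Aqp4, -0.0388 to 0.66 for Ctsc, -0.0634 to 0.644 for Prelp, -0.182 to 0.108 for Cish, -0.478 to 0.557 for Cntf, -0.712 to 1.11 for Socs3, -0.139 to 0.0357 for Gapdh, -0.0237 to 0.0295 for Jak2 (and -0.000261 with upper quartile scaling), -0.00586 to 0.015 for Lifr, -0.0258 to 0.086 for Ncoa1 and -0.0669 to 0.0901 for Pias3. It stayed positive for Stat2 (0.203 to 0.457) and negative for Stat5a (-0.309 to -0.087). The difference between the groups in the log2 ratio of 2 members ran from -0.182 to 0.273 for Stat2 to Stat3, from -0.245 to 0.314 for Stat2 to Stat6, from -0.13 to 0.678 for Stat3 to Stat5b, from -0.119 to 0.0974 for Stat3 to Stat6 and from -0.718 to 0.148 for Stat5b to Stat6. At this depth Stat4, with at most 4 counts, could not be compared.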
